A study of Mus musculus with 9 samples.

Results

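The phagocyte NADPH oxidase was described through 6 of its subunit genes, Cybb, Cyba, Ncf1, Ncf4, Rac1 and Rac2, which were taken by name and were found in both gene tables of the study, 6 of 37187 genes in the LSK table and 6 of 45076 in the neutrophil table. RNA-seq had been run on bone marrow of mice aged 4 to 12 weeks that were either Spop(+/+), here called wild type, or Spop(D/D), here called knockout; Spop is the substrate-binding part of a cullin-based ubiquitin ligase. Of the 9 libraries, 4 were from LSK cells (2 wild type, 2 knockout), the sorted marrow fraction that holds blood stem cells and multipotent progenitors, and 5 were from Ly6G-positive sorted neutrophils (2 wild type, 3 knockout). The labels give no other allele, treatment or Cre driver, and are silent on whether the libraries of a group were made from different animals; the p-values given here reflect library-to-library spread, part of which may be technical.

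The oxidase is the enzyme with which neutrophils and macrophages make superoxide during the respiratory burst. Its membrane part pairs the catalytic chain encoded by Cybb with the smaller chain encoded by Cyba, which stabilises it. On activation, cytosolic proteins, among them the organiser encoded by Ncf1 and the lipid-binding subunit encoded by Ncf4, move to the membrane together with a Rac GTPase. Rac2 is the blood-cell form of that GTPase, whereas Rac1 is made in most cells and also steers the actin skeleton. Loss of Cybb, Cyba, Ncf1 or Ncf4 is known to impair the burst and to cause chronic granulomatous disease.

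In GRCm38, Cybb lies on chromosome X (9435252 to 9487771, minus strand), Cyba on chromosome 8 (122424776 to 122432930, minus), Ncf1 on chromosome 5 (134220053 to 134229625, minus), Ncf4 on chromosome 15 (78244801 to 78262580, plus), Rac1 on chromosome 5 (143503634 to 143528036, minus) and Rac2 on chromosome 15 (78559167 to 78572783, minus). The library kit keeps no strand, so where exons of neighbours overlap their reads cannot be told apart. Daglb, on the opposite strand, shares 51.4% of the exon bases of Rac1, and Gtf2ird2 shares 11.1% of those of Ncf1. The other 4 members share no exon bases with another gene of the annotation.

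Libraries held 18827892 to 20264417 counted reads in LSK cells and 21012702 to 27434086 in neutrophils. Spop itself read 380 and 390 CPM (counts scaled to library size by TMM within a population) in wild-type LSK cells and 312 and 306 CPM in knockout LSK cells (log2 difference -0.32, edgeR adjusted p = 0.0118). It read 135 and 194 CPM in wild-type and 158, 178 and 210 CPM in knockout neutrophils (log2 difference 0.15, edgeR adjusted p = 0.901), and since the deleted part is not named in the labels, the level of the whole transcript is a weak check of genotype. The second knockout LSK library is LSK by its title, although its cell type field says neutrophil; Ly6g had 0 reads in all 4 LSK libraries, this one included. The second wild-type neutrophil library stood apart. Its 11 neutrophil markers summed to 37090 CPM against 208595 to 644705 CPM in the other 4, its B cell markers to 17122 CPM against at most 1610 CPM, and its MHC class II and dendritic cell markers to 25189 CPM against at most 553 CPM. Both wild-type neutrophil libraries expressed Xist (10.7 and 90.5 CPM) with at most 0.0356 CPM of the Y-linked Ddx3y, whereas the 3 knockout neutrophil libraries had 19.0 to 25.7 CPM of Ddx3y and at most 0.198 CPM of Xist, so sex and genotype cannot be told apart in neutrophils. All 4 LSK libraries had Ddx3y (120 and 120 CPM with the wild-type genotype, 99.3 and 71.1 CPM with the knockout) and at most 0.507 CPM of Xist, so sex also differed between the wild-type libraries of the populations.

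The table of RefSeq promoters used here held 3 of the 6 members, and their windows are shown to set Cybb beside Ncf1 and Cyba. Each is the 250 bases before the transcription start, 5′ to 3′ on the gene's own strand, from RefSeq on GRCm38.p6. Capitals mark matches, on either strand, to an IRF-type element (GAAA, any 2 bases, then GAAA) or the CCAAT box (CCAAT). The windows lie at chrX:9469325-9469574 (Cybb), chr5:134229626-134229875 (Ncf1) and chr8:122432941-122433190 (Cyba), all on the minus strand, and the Cybb window lies inside the span of the annotated gene, which also has a start further upstream.
Cybb: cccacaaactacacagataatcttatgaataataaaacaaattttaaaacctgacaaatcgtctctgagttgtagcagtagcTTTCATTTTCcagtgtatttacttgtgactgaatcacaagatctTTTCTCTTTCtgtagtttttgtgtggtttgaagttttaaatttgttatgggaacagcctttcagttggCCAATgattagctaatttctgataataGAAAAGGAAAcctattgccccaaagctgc
Ncf1: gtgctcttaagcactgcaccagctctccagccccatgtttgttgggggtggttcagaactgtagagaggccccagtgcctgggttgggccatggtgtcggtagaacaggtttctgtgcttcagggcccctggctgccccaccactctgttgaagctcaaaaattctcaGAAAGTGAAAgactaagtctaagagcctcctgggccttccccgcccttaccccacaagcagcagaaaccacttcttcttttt
Cyba: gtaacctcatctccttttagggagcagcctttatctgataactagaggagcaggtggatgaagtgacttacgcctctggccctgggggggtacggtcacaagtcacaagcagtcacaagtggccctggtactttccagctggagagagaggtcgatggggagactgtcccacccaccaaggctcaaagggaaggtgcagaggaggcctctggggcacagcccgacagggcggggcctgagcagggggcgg
The Cybb window held the IRF-type element 3 times, at -29 to -20 as printed and at -168 to -159 and -124 to -115 on the opposite strand, beside a CCAAT box at -56 to -52 (positions counted back from the start). The Ncf1 window held 1 IRF-type element at -82 to -73, and the Cyba window held none of the 4 motifs searched. Of 32851 windows of the same length, 2.98% held the IRF-type element, 33.8% CCAAT, 23.3% the PU.1 core GAGGAA and 36.8% the C/EBP core TTNNGNAA; no match to the last 2 was found in the 3 windows. The Cybb window was 34.0% G or C, the Ncf1 window 54.4% and the Cyba window 60.0%, against a median of 52.4% over all windows. A match describes the letters and is not evidence that a factor binds there.

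In LSK cells the transcript of the catalytic chain was an order of magnitude higher in knockout than in wild type, and its confidence interval did not overlap that of any other subunit. Of the 6 members, 3 rose (Cybb, Ncf1 and Ncf4), 0 fell and 3 did not pass the test (Cyba, Rac1 and Rac2), at an adjusted p under 0.05 in edgeR's quasi-likelihood test over 13008 genes. The background is high: 42.2% of all tested genes passed, 21% as higher and 21.2% as lower (2738 and 2756 genes; 2207 and 3445 with upper-quartile scaling). The median log2 difference was 0.25 over the 6 members and -0.03 over all tested genes.

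Wild-type LSK libraries gave Cybb levels of 6.34 and 7.83 CPM (125 and 167 reads), and knockout libraries 80.7 and 99.4 CPM (1549 and 1868 reads). Both knockout libraries were above both wild-type libraries by an order of magnitude. The log2 difference was 3.66 (SE 0.168, 95% confidence interval 3.30 to 4.03), a 12.7-fold rise with an edgeR adjusted p of 3.30e-08, and it ranked 69 of 13008 tested genes by log2 difference. Its partner in the membrane, Cyba, read 239 and 210 CPM in wild type and 231 and 221 CPM in knockout. The knockout values of Cyba lay between the wild-type values, and the log2 difference was 0.01 (SE 0.0980, interval -0.21 to 0.22, edgeR adjusted p = 0.964). The interval of Cyba does not reach a change the size of that of Cybb or Ncf1.

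The cytosolic subunits moved by less. Ncf1, the organiser, read 125 and 124 CPM in wild-type and 171 and 179 CPM in knockout LSK cells. The groups did not overlap, and the log2 difference was 0.49 (SE 0.0957, interval 0.29 to 0.70, 1.41-fold, edgeR adjusted p = 0.00124). Its overlapping neighbour Gtf2ird2 fell from 34.4 to 22.2 CPM over the same libraries (log2 difference -0.63, edgeR adjusted p = 0.00586). Ncf4 read 73.8 and 62.8 CPM in wild type and 92.8 and 105 CPM in knockout. Its groups did not overlap either, and the log2 difference was 0.53 (SE 0.121, interval 0.27 to 0.80, 1.45-fold, edgeR adjusted p = 0.00366). Without the second wild-type library the call on Ncf4 was lost (log2 difference 0.42, edgeR adjusted p = 0.0608). Over all tested genes, 34.6% had both knockout libraries above both wild-type libraries, against 3 of the 6 members, and 38.3% had both below, against 1 of 6, Rac2.

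Neither GTPase gene passed the test. Rac1 read 507 and 499 CPM in wild-type and 476 and 539 CPM in knockout LSK cells. Its groups overlapped, with a log2 difference of 0.01 (SE 0.0958, interval -0.19 to 0.22, edgeR adjusted p = 0.930). Daglb, whose exons share bases with Rac1, read 43.4 and 35.4 CPM in wild type and 62.6 and 65.3 CPM in knockout (log2 difference 0.70, edgeR adjusted p = 0.00117). Rac2 read 546 and 501 CPM in wild type and 438 and 501 CPM in knockout. The higher knockout library and the lower wild-type library were equal after rounding, and the log2 difference was -0.16 (SE 0.0998, interval -0.37 to 0.06, edgeR adjusted p = 0.227). Rac2 passed as lower without the second knockout library (log2 difference -0.25, edgeR adjusted p = 0.0350).

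These LSK calls rest on the spread within the LSK libraries. With a spread shared by all 9 libraries, 0 of the 6 members and 0 genes passed in edgeR (adjusted p = 0.236 for Cybb, 0.946 for Ncf1 and 0.920 for Ncf4). In these bulk libraries, fewer cells of a type and less RNA per cell cannot be told apart. Markers of several other cell types moved in the same libraries as Cybb. The 11 monocyte and macrophage markers summed to 131 to 186 CPM in wild-type and 796 to 1151 CPM in knockout LSK libraries, with 5 higher (F13a1, Ccr2, Csf1r, Ly86 and Cx3cr1), 5 lower (among them Vcam1 and the complement genes C1qa, C1qb and C1qc), 1 not called and none at 0 reads. The 11 neutrophil markers summed to 227 to 237 CPM in wild type and 228 to 293 CPM in knockout, with 2 of the 9 tested higher (Mmp8 and Cxcr2), 2 lower (Ltf and Ngp) and Ly6g at 0 reads. Of the 8 stem and progenitor markers, 7 were lower and 1 was higher, and their sum was 4538 to 4828 CPM in wild type and 2686 to 2936 CPM in knockout. Of 8 B cell markers tested 6 were lower and 0 higher (median log2 difference -4.40), although their sum was 1612 to 2136 CPM in the wild-type and 1690 to 2582 CPM in the knockout libraries. Of 8 red cell markers 6 were lower and 0 higher, with a sum of 59.4 to 68.6 CPM in wild-type and 30.1 to 37.6 CPM in knockout cells. Of 8 MHC class II and dendritic cell markers 4 were lower and 0 higher, with a sum of 1105 to 1106 CPM in wild-type and 450 to 571 CPM in knockout cells. The part of these markers in the Cybb result was not tested.

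The other genes of the pathway were read in the same LSK comparison as fixed lists, described in turn below. Against 42.2% of all tested genes, the share that passed was 44.4% of partners, 27.3% of exchange factors, 75% of brakes and 23.5% of kinases. It was 33.3% of other NADPH oxidases, 77.8% of burst receptors and 81.8% of transcription factors. Of the oxidase partners, the proteins that assemble with the oxidase, feed it NADPH or carry its charge, 4 of 9 tested rose, 0 fell and 5 did not pass, with a median log2 difference of 0.17. Idh1 rose from 61.2 to 146 CPM (2.39-fold), Pgd from 148 to 318 CPM (2.15-fold) and G6pdx from 101 to 195 CPM (1.93-fold); all 3 encode dehydrogenases that make NADPH. Hvcn1, the proton channel that balances the charge of the oxidase, had a log2 difference of -0.27 and did not pass (edgeR adjusted p = 0.0791). Without the second knockout library, 7 partners passed.

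Among the regulators of Rac, the exchange factors, which load the GTPase, had 3 lower of 11 tested and 0 higher. Vav3 fell from 194 to 145 CPM, Prex1 from 192 to 145 CPM and Dock2 from 351 to 295 CPM. The call on Dock2 was lost in DESeq2 (adjusted p = 0.0552), in edgeR without the expression filter (adjusted p = 0.0986) and in 3 of 4 edgeR fits that left out 1 library, and 1 exchange factor passed when either wild-type library was left out. The brakes, which either hold Rac in the cytosol or speed its turn-off, had 3 higher and 3 lower of 8 tested. Racgap1, a GTPase-activating protein of dividing cells, rose from 99.4 to 165 CPM (1.66-fold), Arhgdia rose from 551 to 713 CPM (1.29-fold), Arhgap25 fell from 116 to 53.7 CPM and Bcr fell from 39.6 to 23.3 CPM. The call on Arhgdia was lost in 2 of 4 edgeR fits that left out 1 library. Without the first wild-type library 3 brakes passed. The other pair of called brakes, Arhgdib as higher and Arhgap15 as lower, was named after the values were seen. The median log2 difference was 0.01 for the exchange factors and -0.01 for the brakes.

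Of 17 kinases and kinase subunits that act upstream of assembly, 2 rose, 2 fell and 13 did not pass, with a median log2 difference of -0.02. Pik3cd rose from 218 to 290 CPM and Pik3r5 from 21.1 to 29.1 CPM, both parts of phosphoinositide 3-kinases. Syk, the kinase of Fc receptor and lectin signals, fell from 298 to 226 CPM, and Prkcz fell from 1.02 to 0.236 CPM, close to the floor of 3 reads (0.148 to 0.159 CPM in these libraries). The call on Prkcz was lost in DESeq2 (adjusted p = 0.142), that on Pik3r5 was lost in edgeR with upper-quartile scaling (adjusted p = 0.104), and each was lost in 3 of 4 edgeR fits that left out 1 library. The kinase count fell to 1 when either wild-type library was left out and rose to 7 without the first knockout library. Other NADPH oxidases and their helpers were scarce: 3 of 10 were tested, 1 fell, and that gene, Noxa1, went from 2.44 to 0.451 CPM. The call on Noxa1 was lost when either wild-type library was left out.

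Genes for receptors that trigger or adjust the burst had 6 higher and 1 lower of 9 tested, with a median log2 difference of 1.45. The Fc receptor genes Fcgr2b and Fcgr3 rose from 16.1 to 85.2 CPM (5.29-fold) and from 19.1 to 92.5 CPM (4.83-fold). Of this pair, Fcgr2b encodes an inhibitory receptor and is not a trigger of the burst. Csf2rb, the beta chain common to several cytokine receptors, rose from 54.6 to 192 CPM (3.52-fold), and the leukotriene receptor gene Ltb4r1 rose from 10.4 to 23.9 CPM (2.29-fold). The 1 gene that fell was Itgb2 (75.8 to 51.8 CPM). The median was the value of Fcgr4 (0.849 to 2.32 CPM), which did not pass (edgeR adjusted p = 0.0794). Fpr1, Fpr2 and C5ar1 were not tested, with means of at most 0.420 CPM in either genotype. Itgb2 and these genes were named after the values were seen.

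Of 11 genes for transcription factors linked to control of oxidase genes, 4 rose, 5 fell and 2 did not pass, with a median log2 difference of -0.30. Cebpe, a factor of late granulocyte maturation, rose from 2.44 to 23.5 CPM (9.59-fold), Cebpb from 39.0 to 96.3 CPM (2.47-fold), Cebpa from 43.6 to 101 CPM (2.32-fold) and Irf8 from 119 to 255 CPM (2.14-fold). Satb1, a chromatin organiser, fell from 239 to 138 CPM. Spi1, which encodes PU.1 and was named after its values were seen, had means of 252 and 277 CPM (log2 difference 0.14, edgeR adjusted p = 0.235). With the spread shared by all 9 libraries, 0 genes of any of these 7 lists passed in edgeR.

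**Figure D1:**
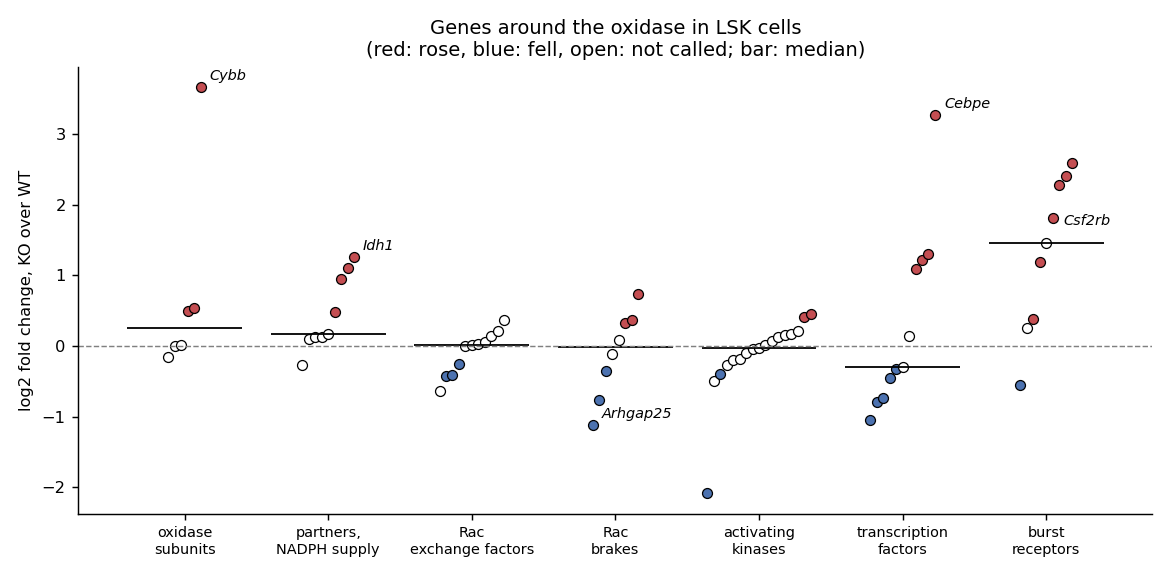
Knockout minus wild-type log2 difference in LSK cells of each gene of the oxidase members and of 6 wider lists; each point is a gene, red points rose and blue points fell at an edgeR adjusted p under 0.05, open points did not pass, and bars mark medians. Cybb at 3.66 is the highest point of the members. The burst receptors have the highest median, 1.45, which is the value of Fcgr4, an open point.

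In neutrophils, where the oxidase works, no member passed. In edgeR 0 of 6 members and 0% of 12836 tested genes passed in either direction, with 0 members and 1787 genes at an unadjusted p under 0.05; DESeq2 called 0 members and 877 genes. All 6 fitted differences were above 0, with a median of 0.83 against 0.02 over all tested genes. Every member was lowest in the second wild-type neutrophil library, the one low in neutrophil markers and high in B cell markers, and each value is therefore given also without it.

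Levels of Cybb were 1449 and 665 CPM in wild-type neutrophils and 2344, 1906 and 1469 CPM in knockout neutrophils. The knockout values were all higher, the lowest by a narrow margin, and the log2 difference was 0.85 (SE 0.600, interval -0.57 to 2.27, edgeR adjusted p = 0.567). It was 0.36 without the second wild-type library. Cybb is X-linked, and these libraries differed in Xist and Ddx3y by genotype, as given above; the part of that difference was not tested. Cyba read 2612 and 1279 CPM in wild type and 1805, 2042 and 4687 CPM in knockout. The genotypes of Cyba overlapped, and its high value was in the third knockout library, which also had the highest sum of neutrophil and red cell markers. The log2 difference of Cyba was 0.55 (SE 0.701, interval -1.11 to 2.20, edgeR adjusted p = 0.755), and 0.09 without the second wild-type library.

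Ncf1 read 1325 and 187 CPM in wild-type neutrophils and 1536, 2263 and 1266 CPM in knockout neutrophils. The first wild-type library lay among the knockout libraries and the second lay about an order of magnitude under them. The log2 difference was 1.16 (SE 0.862, interval -0.88 to 3.20, edgeR adjusted p = 0.588), and 0.32 without the second wild-type library. Ncf4 had the same shape, with 711 and 156 CPM in wild type and 698, 848 and 903 CPM in knockout. Its log2 difference was 0.91 (SE 0.701, interval -0.74 to 2.57, edgeR adjusted p = 0.598), and 0.17 without that library.

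Rac1 read 424 and 405 CPM in wild-type neutrophils and 604, 590 and 974 CPM in knockout neutrophils. Its groups did not overlap, and it was the member with the closest wild-type pair. The log2 difference was 0.80 (SE 0.494, interval -0.36 to 1.97, edgeR adjusted p = 0.510), and 0.74 without the second wild-type library. Rac2 read 3238 and 971 CPM in wild type and 3139, 3069 and 3717 CPM in knockout. The first wild-type value of Rac2 lay inside the knockout range. Its log2 difference was 0.65 (SE 0.689, interval -0.97 to 2.28, edgeR adjusted p = 0.703), and -0.00083 without the second wild-type library. Thus 2 of 6 members, Cybb and Rac1, had every knockout library above every wild-type library, against 17% of all tested genes.

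**Figure D2:**
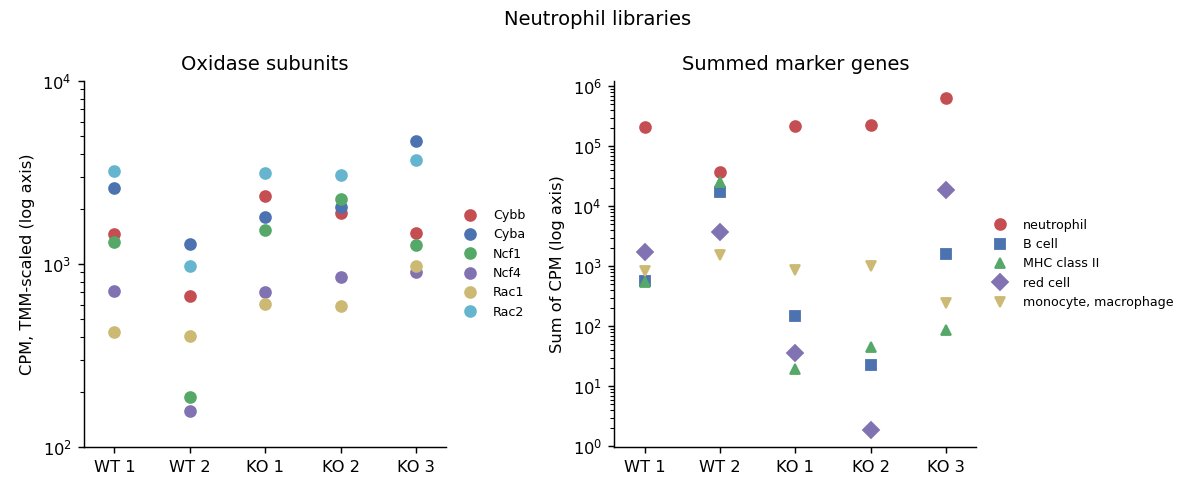
Neutrophil libraries only: level of each member in each library (left, TMM-scaled CPM, log axis) and summed levels of marker lists (right, log axis). The second wild-type library is lowest for all 6 members and has the lowest sum of neutrophil markers, 37090 CPM, and the highest sum of B cell markers, 17122 CPM.

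Of the 7 wider lists, that of other NADPH oxidases had 0 genes tested in neutrophils, so it could give no call. The other lists had 0 calls in the main edgeR fit. At an unadjusted p under 0.05 were 1 of 11 exchange factors, 1 of 10 transcription factors and 2 of 12 receptors tested. Among all 12836 tested genes, 1787 were under that threshold. DESeq2 called Vav2, Irf8 and Fpr2. In edgeR, Irf8 and Vav2 also passed as lower without the expression filter (adjusted p = 0.0251 and 0.0144). With the spread shared by all 9 libraries both passed again (edgeR adjusted p = 0.0458 and 0.0439). The formyl peptide receptor genes Fpr2 and Fpr1, which sense bacterial peptides, had means of 97.6 and 137 CPM in wild type and 510 and 597 CPM in knockout (log2 differences 2.39 and 2.13, edgeR adjusted p = 0.229 and 0.322). Irf8 had means of 195 and 24.3 CPM (log2 difference -3.00, edgeR adjusted p = 0.216), opposite in sign to its value in LSK cells. It was -2.27 without the second wild-type library (edgeR adjusted p = 0.539), and DESeq2 called it (adjusted p = 0.00273). Markers of cells other than neutrophils lay in the same direction: the 8 MHC class II and dendritic cell markers had sums of 553 and 25189 CPM in wild-type and of 19.2, 44.7 and 87.5 CPM in knockout neutrophils, so the first wild-type library was also above every knockout library. The 11 monocyte and macrophage markers had sums of 851 and 1539 CPM in wild-type and of 856, 1017 and 246 CPM in knockout neutrophils, with a median log2 difference of -2.40, 9 of 11 at an unadjusted p under 0.05 and 0 called in edgeR. The part of these markers in the Irf8 value was not tested. The exchange factor gene Vav2 had means of 11.1 and 0.644 CPM (log2 difference -4.10, edgeR adjusted p = 0.216). Without the second wild-type library the differences were 1.76 for Fpr2, 1.31 for Fpr1 and -2.81 for Vav2, none of them called by edgeR (adjusted p from 0.539 to 0.543).

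A single fit of all 9 libraries asked, through an interaction term, whether the knockout effect differed between LSK cells and neutrophils, and no member passed. In edgeR 4 of 13820 genes passed (0.0289%), and all 4 were Y-linked genes (Ddx3y, Eif2s3y, Kdm5d and Uty), which mark the sex of a library. Of all genes, 2173 had an unadjusted p under 0.05, and of the members 0 passed and 1, Cybb, had an unadjusted p under 0.05; DESeq2 called 1 member, Cybb, and 1017 genes. The effect on Cybb was lower in neutrophils than in LSK cells by a log2 difference of -2.87 (SE 0.641, interval -4.35 to -1.39, unadjusted p = 0.00205, edgeR adjusted p = 0.177). It stayed negative in all 15 alternatives, from -3.26 to -2.14, with adjusted p from 0.000725 to 0.723. Because Cybb is X-linked and sex differed by genotype among the neutrophil libraries alone, sex and the interaction on Cybb cannot be told apart. Those under 0.05 came from DESeq2 (0.000725), from edgeR without the first wild-type neutrophil library (0.0356) and from edgeR without both the second wild-type and the third knockout neutrophil libraries (0.0114). The other 5 members had differences of 0.30 to 0.74 with edgeR adjusted p of 0.453 to 0.903. Without the first wild-type neutrophil library 4 members passed, Cybb as lower and Ncf1, Ncf4 and Rac2 as higher.

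**Figure D3:**
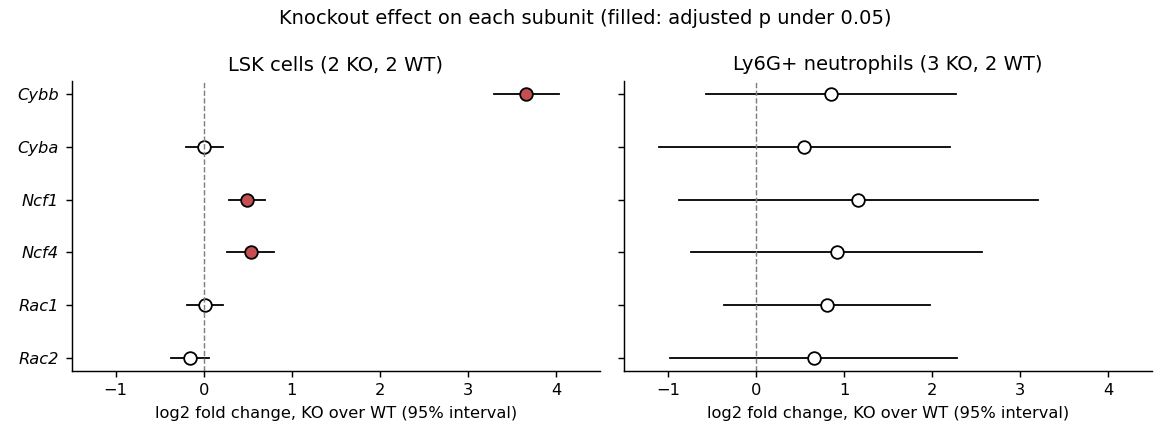
Knockout minus wild-type log2 difference of each member in LSK cells and in neutrophils, with 95% confidence intervals; filled points passed at an edgeR adjusted p under 0.05. Cybb stands at 3.66 in LSK cells and 0.85 in neutrophils, and the neutrophil intervals of all 6 members cross 0.

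Levels were compared between genes and between populations as RPKM, read counts scaled for exon length and for library size, with TMM over all 9 libraries. Rac1 was scaled by its full exon length, of which Daglb shares 51.4%, and the effect of this overlap on its level was not tested. The populations come from separate count tables, and the wild-type libraries also differed by population in Xist and Ddx3y, so population, table and sex cannot be told apart. In wild-type LSK cells the order of mean levels was Cyba at 130 ± 11.1 RPKM (SD, n = 2), Rac2 at 101 ± 5.51, Rac1 at 67.1 ± 0.439, Ncf1 at 20.3 ± 0.00620, Ncf4 at 20.3 ± 2.20 and Cybb at 0.732 ± 0.113. Ncf1 and Ncf4 did not differ beyond their spread, whereas every other neighbouring pair was separated in both libraries. Cybb, the catalytic chain, was thus the scarcest subunit, above 24.8% of tested genes, while Cyba was above 99.0%. In knockout LSK cells Cybb reached 9.35 ± 1.52 RPKM (SD, n = 2), above 70.2% of tested genes, and was still the lowest of the 6; Ncf4 at 29.5 ± 2.99 and Ncf1 at 28.8 ± 1.46 again overlapped.

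In wild-type neutrophils the order was Cyba at 2978 ± 1524 RPKM (SD, n = 2), Rac2 at 1083 ± 849, Ncf4 at 343 ± 317, Ncf1 at 331 ± 357, Cybb at 290 ± 160 and Rac1 at 146 ± 9.46. In knockout neutrophils it was Cyba at 4131 ± 2148 RPKM (SD, n = 3), Rac2 at 1628 ± 116, Ncf1 at 708 ± 227, Ncf4 at 617 ± 59.5, Cybb at 506 ± 135 and Rac1 at 244 ± 63.4. Ncf1, Ncf4 and Cybb have no clear order in neutrophils, since their ranges overlapped in both genotypes, and in wild type the range of Rac2 (483 to 1683 RPKM) also overlapped those of Ncf1 (78.7 to 583 RPKM) and Ncf4 (119 to 567 RPKM). Cybb moved from last place in LSK cells to within the range of the cytosolic subunits, and Rac1 became the lowest mean. In the second wild-type neutrophil library, however, Rac1 (139 RPKM) lay above Ncf1 (78.7 RPKM) and Ncf4 (119 RPKM).

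**Figure D4:**
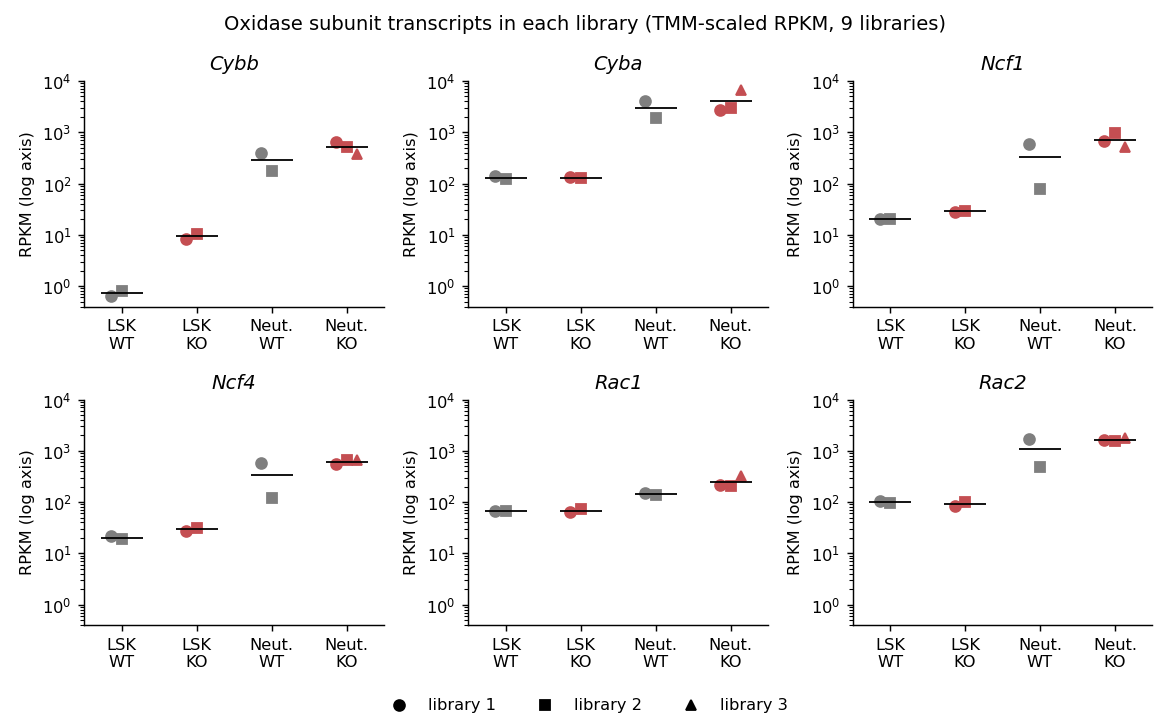
Level of each oxidase subunit gene in every library, in RPKM with TMM over all 9 libraries on a log axis; points are libraries and lines are group means. Cybb means climb from 0.732 RPKM in wild-type and 9.35 RPKM in knockout LSK cells to 290 and 506 RPKM in wild-type and knockout neutrophils, and the second wild-type neutrophil library is the lowest neutrophil point of all 6 genes.

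All 6 members were higher in wild-type neutrophils than in wild-type LSK cells, in a comparison where 25.3% of 13820 tested genes passed, 13.8% as higher. Cybb had the largest log2 difference of the members, 8.63 (SE 0.653, 395-fold, edgeR adjusted p = 0.000568), from 0.652 and 0.812 RPKM to 403 and 177 RPKM. Cyba followed with 4.52 (23.0-fold, adjusted p = 0.00381), then Ncf4 with 4.08 (16.9-fold, adjusted p = 0.00671), Ncf1 with 4.03 (16.3-fold, adjusted p = 0.0155) and Rac2 with 3.42 (10.7-fold, adjusted p = 0.00773), all in edgeR. The order of these 4 is not settled: over the 16 alternatives the differences ran from 3.83 to 5.05 for Cyba, 2.52 to 4.89 for Ncf4, 1.91 to 4.92 for Ncf1 and 2.21 to 4.16 for Rac2. All 4 were lowest without the first wild-type neutrophil library, which leaves the one low in neutrophil markers. Cybb ran from 5.76 to 9.18. Rac1 had the smallest, 1.12 (2.17-fold, edgeR adjusted p = 0.0417), and lost its call in 8 of 16 alternatives. Cybb passed in all 16. When either of the wild-type LSK libraries was left out, Cybb was the only member called, and the other 5 kept their direction.

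The balance within the membrane pair was read as a ratio. Per exon length, Cyba exceeded Cybb 211-fold and 150-fold in the wild-type LSK libraries and 16.0-fold and 12.4-fold in the knockout LSK libraries. The ratio was 10.1 and 10.8 in wild-type neutrophils, where the second library, low in both genes, did not stand apart, and 4.31, 5.99 and 17.8 in knockout neutrophils. The knockout LSK ratios were thus separated from the wild-type LSK ratios. They lay above those of both wild-type neutrophil libraries and of the first and second knockout neutrophil libraries. Only the third knockout neutrophil library, the one with the high Cyba value, had a higher ratio. Rac2 made up 60.9% and 59.3% of the summed Rac1 and Rac2 level per length in wild-type LSK cells and 57.1% and 57.4% in knockout LSK cells. It made up 91.7% and 77.7% in wild-type neutrophils and 88.3%, 88.3% and 84.7% in knockout neutrophils. Every neutrophil library was therefore richer in Rac2 relative to Rac1 than every LSK library. These ratios are descriptions with no test, and the Rac2 share uses the full exon length of Rac1, part of which Daglb shares.

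**Figure D5:**
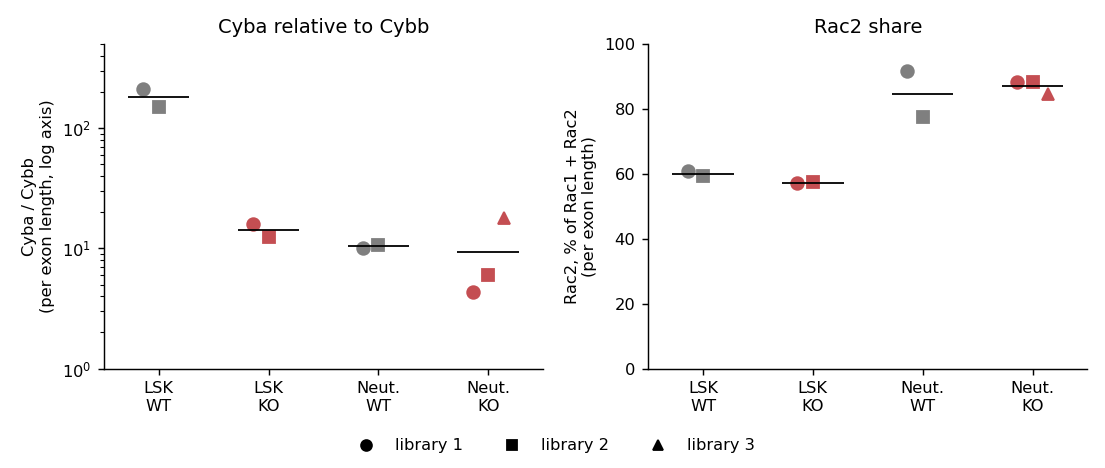
Ratio of Cyba to Cybb per exon length (left, log axis) and Rac2 as a percentage of Rac1 plus Rac2 per exon length (right) in each library; points are libraries and lines are group means. The ratio is 211 and 150 in wild-type and 16.0 and 12.4 in knockout LSK cells, and Rac2 makes up 77.7% or more in all 5 neutrophil libraries.

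The genes whose profile was most like that of each member were found by the root mean square difference of centred log2 CPM over the 9 libraries, among 8989 genes; both populations enter it, so the distance between populations weighs heavily. Cybb was closest to Nlrp12 (0.44) and Siglece (0.52). Ncf1 was closest to Slc31a2 (0.22) and Ckap4 (0.26). Slc31a2 was also near Ncf4 (0.18). Cyba was closest to Mgst1 (0.28) and Prdx5 (0.34), Rac2 to Cnn2 (0.13) and Ehd1 (0.15), and Rac1 to Dazap2 (0.12) and Tmbim4 (0.14). Among the members the closest pair was Ncf1 and Ncf4 (0.32), followed by Ncf4 and Rac2 (0.37), and the farthest pair was Cybb and Rac1 (3.09). Cybb was at least 1.82 from each of the other 5 members.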

How the data were processed

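Per the labels' protocols, RNA came from RNeasy Micro kits and polyA-primed libraries from SMART-Seq v4, a kit that does not mark strand. Tools named in the submitters' processing notes are STAR, featureCounts, bcl2fastq and DESeq2, with builds GRCm38 and mm10. The annotation and strand setting are not stated in those notes. Raw read counts per gene, deposited for each population, were used in all tests. The deposited normalized signal values, which equal the counts after division by 1 factor per library, served only to find the members.

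Counts were tested within each population with edgeR 4.0.16 (R 4.3.3): TMM factors, filterByExpr with the groups, the robust quasi-likelihood F test, and Benjamini-Hochberg adjustment over all tested genes at 0.05. The neutrophil table gives symbols and the LSK table Ensembl identifiers; 35225 genes were joined by GENCODE M21 symbol, 794 through an older symbol, for the fit of all 9 libraries. Exon lengths, coordinates and overlaps are from GENCODE M21. DESeq2 1.42.0, limma 3.58.1, upper-quartile scaling, no filter, a replicate block, a shared spread and leaving out libraries were alternatives. Replicates differed by more than counting noise (lowest chi-square per gene 9.88). Where 1 library of a group was left, it was assumed to vary like the others. The procedure was run on counts simulated with the fitted spread of each gene, without shifts in cell type or sex. The outcome is not used here as support.

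The members and lists were chosen with earlier results of these data known. Named genes are Spop, up to 4 genes per list with the smallest p in LSK cells and up to 2 in neutrophils, and the 2 genes most like each member (mean log2 CPM of at least 2, prior count 2); exceptions are stated, and some genes are not reported here. A floor of 3 reads equals 0.109 to 0.159 CPM and covers counting error only, since reads carry no molecular identifiers.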

Additional observations from a re-analysis of the deposited data

How the results depend on the processing

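In LSK cells the directions of Cybb, Ncf1 and Ncf4 held in all 9 alternatives, and their calls were lost with the spread shared by all 9 libraries, where 0 members and 0 genes passed in edgeR. With upper-quartile scaling the differences of Cyba and Rac1 in LSK cells were -0.086 and -0.080, and that of Spop in neutrophils was -0.0031; the median of all genes in neutrophils moved from 0.02 to -0.12 and that between the wild-type populations from -0.0087 to -0.11. The number of called genes in neutrophils was 877 with DESeq2, 334 without the expression filter and 563 with the shared spread. Without both the second wild-type and the third knockout neutrophil library, the neutrophil differences were -0.46 for Cyba, -0.077 for Rac2 and 0.19 for Chn2, and the interaction values were -0.51 for Cyba, -0.038 for Ncf1 and -0.47 for Ncf4, with 1 member and 1831 genes called; 7754 genes then differed between the wild-type populations. The interaction had 1 member and 1017 genes with DESeq2, 10 genes without the filter and 28 genes with limma voom and a variance per population, an alternative chosen after seeing the data. With knockout in place of wild-type libraries, 6751 genes differed between populations. The causes of these changes were not tested. Same-numbered libraries deviated together weakly or not at all (correlations of 0.00393 in LSK cells, 0.239 and -0.0241 in neutrophils). In a group of 2 libraries the deviations mirror each other, so this check could not exclude pairing. With a replicate block, 334 genes were called in neutrophils and 0 in the interaction, where Cyba was -0.0026.

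Leaving out 1 library at a time gave 3524 to 5718 called genes and 2 to 4 members in LSK cells, 0 to 601 genes in neutrophils, 0 to 1405 genes and 0 to 4 members in the interaction, and 354 to 5060 genes and 1 to 6 members between the wild-type populations. The lowest and highest differences were -0.081 and 0.11 for Cyba, -0.075 and 0.14 for Rac1 and -2.03 and 0.30 for Rac3 in LSK cells; -0.020 and 1.20 for Cyba, -0.00083 and 1.83 for Rac2, -0.037 and 0.40 for Spop, -0.079 and 1.49 for Spi1 and -2.39 and -0.37 for Chn2 in neutrophils; and -0.058 and 1.12 for Cyba, -0.13 and 2.69 for Ncf1 and -0.32 and 1.85 for Ncf4 in the interaction. With 2 or 3 libraries a group and a wide spread in neutrophils (biological coefficient of variation 0.608, against 0.126 in LSK cells), changes of the size seen for Ncf1 and Ncf4 in LSK cells lie inside the neutrophil intervals.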
